A study of Mus musculus with 2 samples.

Results

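Of 28403 autosomal regions of accessible chromatin formed from the peak lists of 2 fetal liver libraries, 1942 lay inside genes and were found in the Brd9 knockout list alone. Peaks of both lists that shared at least 1 bp were merged into regions, and a region was kept when it held knockout peaks alone, overlapped a RefSeq gene of any type and lay more than 1000 bp from every gene end. These are called knockout-only regions inside genes. Regions inside genes that held control peaks alone numbered 3587 and those found in both lists, called shared, numbered 5520. The 1942 regions thus made up 17.6% of 11049 regions inside genes, while over all 28403 autosomal regions 13.1% were knockout-only. The regions were chosen by their peak calls in both lists, so their presence in one list and absence from the other is a description and not a finding.

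The assay was ATAC-seq, in which a transposase inserts adapters where DNA is accessible. Both libraries came from C57BL/6 fetal liver of E14.5 embryos, from cells sorted by flow cytometry for c-Kit and against mature-lineage markers, with 150000 cells each. The control library (replicate 1) had the genotype CD45.2(+) Brd9fl/fl, and the knockout library (replicate 2) had the genotype CD45.2(+) Vav1-iCre Brd9fl/fl. Both groups therefore carry floxed Brd9 alleles, and the knockout adds the Cre transgene, so effects of Cre and of Brd9 loss cannot be told apart. Vav1 regulatory DNA drives Cre in blood cells, so most other cells of the embryo keep Brd9. The number of embryos behind each library is not stated in the labels. With 1 library per genotype no test was possible, and every difference below is between these 2 libraries. Fewer cells with an open site and less accessibility per cell cannot be told apart in such bulk samples.

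BRD9 is a bromodomain protein and a defining subunit of the non-canonical BAF complex, a chromatin remodeller that moves or evicts nucleosomes. Accessible sites inside genes include enhancers in introns and promoters of alternative transcripts. In blood progenitors such sites bind lineage factors, and many are open in one cell type and closed in another. The gene table gives outer gene ends without transcripts, so exons and introns were not told apart here.

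Annotated transcription starts were rare among the knockout-only regions inside genes. An annotated start lay inside 40 of 1862 such regions, 2.15% (1.54 to 2.91; 95% exact Clopper-Pearson interval, as for all shares). In control-only regions the share was 2.24% (1.78 to 2.79) and in shared regions 12.7% (11.8 to 13.6). At like summit reads the gap was smaller: among knockout peaks of 7 to 12 reads, 2.21% of knockout-only and 3.12% (2.14 to 4.37) of shared regions held a start. Shared regions of that range were also wider, with a median of 796 bp against 502 bp, and so had more room for a start. The part of width in these shares was not tested. These 40 starts are the places where sequence was at hand, and 4 are shown as the 250 bases before the start, from RefSeq (GRCm38.p6, the mm10 coordinates). Pstpip1 and Bpnt1 are shown because they were among the 4 with the highest deposited −log10 q and their windows lay wholly inside the region; capitals mark CG dinucleotides. Adgb and Cyth1 are shown because a blood factor motif in the window lay inside the region; capitals mark motifs.
Pstpip1, chr9:56089726-56089975, plus strand: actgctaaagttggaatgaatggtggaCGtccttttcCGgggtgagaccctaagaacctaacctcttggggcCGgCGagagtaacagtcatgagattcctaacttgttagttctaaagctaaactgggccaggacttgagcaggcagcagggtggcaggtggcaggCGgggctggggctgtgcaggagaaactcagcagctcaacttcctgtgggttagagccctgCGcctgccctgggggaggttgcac
Bpnt1, chr1:185331909-185332158, plus strand: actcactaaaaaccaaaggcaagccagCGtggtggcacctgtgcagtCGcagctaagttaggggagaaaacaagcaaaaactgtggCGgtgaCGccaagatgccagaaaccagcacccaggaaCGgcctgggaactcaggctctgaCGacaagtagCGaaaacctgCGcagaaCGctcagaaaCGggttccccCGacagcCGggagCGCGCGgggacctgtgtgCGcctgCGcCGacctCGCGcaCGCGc
Adgb, chr10:10472400-10472649, minus strand: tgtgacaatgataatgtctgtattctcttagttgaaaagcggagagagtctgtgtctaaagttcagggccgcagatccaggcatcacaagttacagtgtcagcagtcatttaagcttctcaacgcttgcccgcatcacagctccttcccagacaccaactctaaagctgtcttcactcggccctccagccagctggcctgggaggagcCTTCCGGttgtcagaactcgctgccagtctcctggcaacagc
Cyth1, chr11:118212732-118212981, minus strand: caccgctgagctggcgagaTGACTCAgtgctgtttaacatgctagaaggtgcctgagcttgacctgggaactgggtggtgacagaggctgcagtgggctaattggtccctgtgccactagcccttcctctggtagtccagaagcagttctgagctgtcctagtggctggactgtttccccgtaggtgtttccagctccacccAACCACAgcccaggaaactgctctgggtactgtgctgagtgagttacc

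Pstpip1 encodes a cytoskeletal adaptor of blood cells. Its region (chromosome 9, 56089701 to 56090403) had 20 knockout reads at the summit (12.2 to 30.9; exact Poisson interval), and the window has 6 CG dinucleotides. Bpnt1, the gene of a bisphosphate nucleotidase, had a region of 826 bp with 36 reads (25.2 to 49.8) and a window with 22 CG dinucleotides, more than that of Pstpip1. In the Adgb window, the gene of androglobin, the ETS motif stands 36 to 42 bases before the start as CTTCCGG, the reverse complement of CCGGAAG, and the region had 12 reads. Cyth1 encodes cytohesin, an exchange factor for ARF GTPases, and its region had 13 reads (6.92 to 22.2). The Cyth1 window holds a RUNX motif (TGTGGTT, here as AACCACA) 42 to 48 bases before the start, inside the region, and an AP-1 motif (TGANTCA) 225 to 231 bases before it, outside.

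Over all 40 windows before starts inside knockout-only regions, no searched motif was much more frequent than over the 32851 RefSeq windows of the same length. The GATA motif AGATAA was found on either strand in 2 windows, 5% (0.611 to 16.9), against 9.99% of all windows. CCGGAAG (ETS), TGTGGTT (RUNX), TGANTCA (AP-1) and GAGGAAGT (PU.1) each occurred in 1 window, 2.5%, against 6.91%, 4.396%, 6.75% and 2.44% of all windows. GGGGCGGGG (KLF and SP factors) was in 5 windows, 12.5% against 10.4%, and CCAAT in 13, 32.5% against 33.8%. The median GC content was 57.2% in these windows and 52.4% over all, with medians of 8 and 6 CG dinucleotides. Windows in shared regions inside genes (811) had 60.4% GC and 15 CG dinucleotides, and those in control-only regions (84) had 57.6% and 11. Many windows reached beyond their region, and the part inside ranged from 6 of 250 bases (Sox6) to all 250. The GATA matches (Sox6 and Gm38137), the PU.1 match (Isl2) and the AP-1 match (Cyth1) lay outside the region. Counts and composition are therefore those of windows before starts and not of the regions. A match is a description of letters and not a binding site.

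The knockout-only regions inside genes were mostly weak and narrow. Summit reads, the extended reads covering a peak's highest point, were recovered from the deposited fold and −log10 p. They ranged from 6 to 157 with a median of 9 (quartiles 7 and 12). Of the 1942 regions, 504 (25.95%) had at most 7 reads and 1219 (62.8%) at most 10, whereas 97 (4.99%) had at least 20 and 14 (0.721%) at least 40. Median width was 506 bp (quartiles 430 and 620), with the shortest at 376 bp, the shortest width in either whole list. Control-only regions inside genes had a median of 14 control reads and 554 bp, and shared regions 37 control and 22 knockout reads and 895 bp. A shared region spans the merged peaks of both lists, which by itself adds to its width. The single peaks of the whole knockout list had a median width of 731 bp. These reads and widths belong to the peaks that chose the regions and carry no test.

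**Figure D1:**
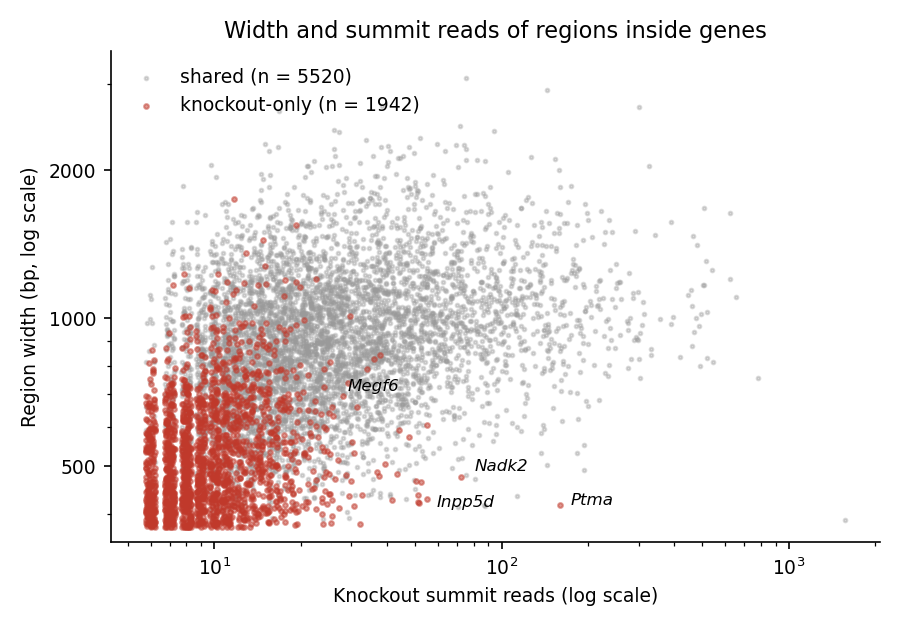
Width in bp against knockout summit reads, both on log scales, for the 1942 knockout-only (red) and 5520 shared (grey) autosomal regions inside genes; reads were jittered by up to 4% so that points can be seen. Knockout-only regions crowd at 6 to 12 reads and low width, while Inpp5d, Nadk2 and Ptma stand out as narrow regions with many reads. Widths of shared regions span the merged peaks of both lists.

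The knockout library was the shallower one. Its lowest background, applied by the peak caller across the genome, was 0.971 reads against 1.52 in the control, a relative depth of 0.640 if reads were extended alike. A median of 9 reads thus corresponds to 14.1 reads at control depth, close to the 14 of the control-only regions. The lowest control peak had 7 reads, and for 926 knockout-only regions (47.7%) the lower limit of the reads at control depth was above 7. For the other regions, reads in the control at the level of the knockout could have stayed under the lowest control peak within counting error. Sites with a higher background can need more than 7 reads for a peak, and 963 regions (49.6%) had the lowest knockout background. The knockout reads used here also chose the regions. The 47.7% is thus not a share of regions that the control list should have held. A site without a control peak may still have been accessible in the control, and control reads at such sites were not analysed here.

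The share of regions found in one list alone fell steeply with summit reads in both libraries. Of regions inside genes with under 15 knockout reads at control depth, 71.0% (68.6 to 73.4; 1016 of 1430) were knockout-only. The share was 29.8% (829 of 2782) from 15 to under 30 reads, 4.77% (83 of 1740) from 30 to under 60, and 0.927% (0.508 to 1.55; 14 of 1510) from 60. In the control list, the control-only share was 75.7% (1858 of 2456), 45.7% (1337 of 2927), 17.5% (329 of 1879) and 3.41% (2.63 to 4.35; 63 of 1845) over the same steps. Under 15 reads the ranges were not quite alike, since knockout peaks start at 9.37 reads at control depth and control peaks at 7. In every step, control regions were missing from the knockout list more often than knockout regions were missing from the control list. The depth of the list searched differed too, being lower for the knockout, and its part in this difference was not tested.

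**Figure D2:**
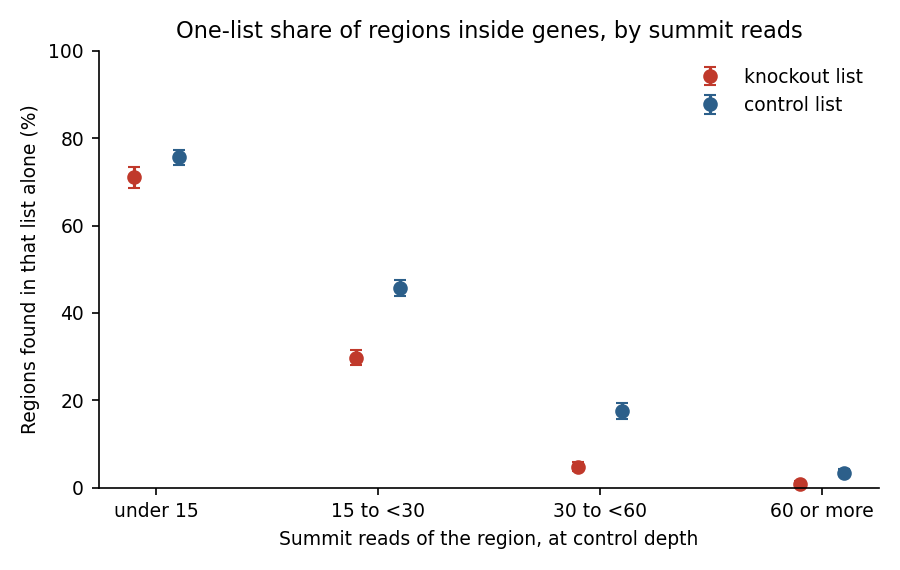
Percent of regions inside genes found in that list alone, by summit reads at control depth, for the knockout (red) and control (blue) list; bars are 95% exact Clopper-Pearson intervals. The share falls from 71.0% to 0.927% in the knockout list and from 75.7% to 3.41% in the control list.

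Most knockout-only regions inside genes stood clear of any control peak. The nearest control peak lay at a median of 13188 bp, within 250 bp of 34 regions (1.75%), within 1000 bp of 104 (5.36%) and within 10000 bp of 808 (41.6%, 39.4 to 43.8), while 141 had none within 100000 bp. Control-only regions inside genes had nearly the same spacing to knockout peaks, with a median of 13339 bp and 40.3% (38.7 to 41.9) within 10000 bp. Knockout-only regions between genes were farther from control peaks, with a median of 17086 bp and 36.2% (33.2 to 39.3) within 10000 bp, and those at gene ends had 11987.5 bp and 44.8%. The regions nearest to a control peak were in Acsl1, the gene of a long-chain acyl-CoA synthetase (0 bp, directly adjacent), Nxpe5 (5 bp) and Lair1, an inhibitory receptor gene of leukocytes (11 bp), each with 8 reads. On the shared side of that boundary, the regions with the least overlap were in Snd1 (3 bp; 13 control and 11 knockout reads), Fbxw7 (7 bp; 12 and 9) and Pag1 (17 bp; 25 and 26). The reads of Snd1 and Fbxw7 were thus like those of the knockout-only regions across the boundary.

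**Figure D3:**
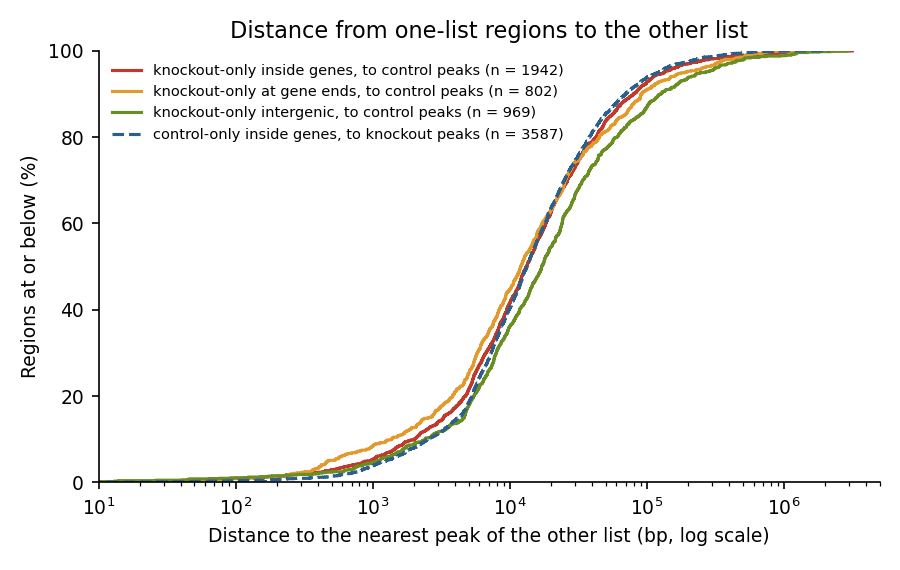
Cumulative percent of regions by distance in bp (log scale) to the nearest peak of the other list, for the 1942 knockout-only regions inside genes, 802 knockout-only regions at gene ends, 969 intergenic ones, and 3587 control-only regions inside genes (dashed). The curves for both classes inside genes run close together, with medians of 13188 and 13339 bp, and the intergenic curve lies to their right.

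Within the gene, the knockout-only regions showed no crowding toward either end. In the 1354 regions that could be placed along a gene of known strand, the median position was 49.0% of the gene from its start, 18.9% lay in the first 20% of the gene and 20.1% in the last. Control-only regions gave 18.8% and 20.01%. Shared regions lay nearer to starts, with a median position of 42.9%, 23.3% in the first 20% and 15.1% in the last. At 7 to 12 knockout reads the classes were closer, with 17.3% of knockout-only and 19.6% of shared regions in the first 20% and median positions of 50.3% and 48.4%. The median distance to the nearest gene end was 9798 bp and reached 295630 bp. Just past the 1000 bp limit lay the regions in Samd12 (1001 bp; 10 reads), Cpne9 (1004 bp; 9 reads) and Gm14009 (1006 bp; 18 reads), and just short of it those in Med29 (999 bp; 36 reads), Gm41362 (991 bp; 9 reads) and Ccsap (990 bp; 6 reads).

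Protein-coding genes held 1753 of the knockout-only regions inside genes (90.3%), genes of long noncoding RNAs 177 (9.11%) and other genes 12. A single gene spanned 1842 regions and a pair of genes 96. A pair of regions on chromosome 18 lay in 23 and 25 overlapping gene entries of the gamma-protocadherin cluster, whose members share their last exons. By chromosome, knockout-only regions made up from 14.6% (11.7 to 18.01) of regions inside genes on chromosome 17 to 22.3% (18.1 to 26.9; 80 of 359) on chromosome 18. These intervals stop just short of each other, at 18.01 and 18.1, but they were picked as the extremes of 19 chromosomes.

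Genes with such a region were long. Of 18117 protein-coding genes long enough to hold one (over 2376 bp), 1532 did, which is 8.46%, and their median length was 70.3 kb against 21.9 kb for all 18117. The share was 1.10% in the shortest 25% of genes (50 of 4530), 3.73% and 8.24% in the next ones, and 20.8% (940 of 4529) in the longest 25%, from 52.3 kb. Control-only regions followed length likewise, with 1.21%, 6.31%, 14.47% and 32.8%. Of the 1532 genes, 1298 held 1 knockout-only region, 199 held 2 and 35 held 3 or more. Control-only regions stood in 573 of the same genes (37.4%) and shared ones in 671 (43.8%). Counted per region, 900 of the 1942 (46.3%) had a shared region in the same gene, 727 (37.4%) a control-only one, and 1110 (57.2%) a shared region at an end of the gene.

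The genes with the most knockout-only regions were Zmiz1 and Map3k5. Zmiz1 encodes a coregulator that works with SUMO ligases and with Notch1. It held 6 knockout-only, 2 control-only and 6 shared regions inside the gene (chromosome 14, 25457875 to 25666743), with 11, 9, 11, 8, 9 and 20 summit reads in the order of their positions. The region with 20 reads (25646142 to 25646589) lay toward the far end of the gene, 11.2 kb from a control peak, and that with 11 reads at 25494476 lay 52 bp from one. Gene-end reads were taken at the shared region with the most reads near either end of a gene, which need not be its promoter. For Zmiz1 that region had 118 control and 75 knockout reads. Divided by the relative depth this gives a scaled ratio of 0.993 (0.733 to 1.34; exact conditional binomial interval), so the gene end did not differ beyond counting error.

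Map3k5, the gene of the stress-activated kinase ASK1, held 5 knockout-only, 2 control-only and 1 shared region, with 11, 7, 6, 9 and 9 reads. Its shared gene-end region had 43 control and 55 knockout reads, a scaled ratio of 1.998 (1.32 to 3.05). An interval above 1 was found in 9.58% of all 9681 protein-coding genes measured at a gene end. The genes with 4 were Slc39a11, a zinc transporter gene (11, 7, 9 and 6 reads), Etv6 and Pde4d. Etv6, an ETS repressor needed by stem cells in the marrow, had 10, 12, 9 and 9 reads in 4 knockout-only regions beside 4 control-only ones, and a gene-end ratio of 1.01 (0.737 to 1.37). Pde4d, a cyclic AMP phosphodiesterase gene of 1302 kb, had 11, 25, 14 and 7 reads beside 6 control-only and 7 shared regions. One-list calls thus went both ways inside Etv6 and Pde4d.

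In all, 36 genes held at least 3 knockout-only regions, and 32 of them were longer than 100 kb. Control-only regions were fewer than knockout-only ones in 24 of these genes, as many in 7 and more in 5, a comparison in which the choice of genes favours the knockout. Of the 35 protein-coding genes of this set, 24 (68.6%) held a control-only region, against 37.4% of all 1532 with a knockout-only region. The median lengths were 180 and 70.3 kb. In 12 of the 36 genes there was no control-only region at all. Among these, Abl1, a tyrosine kinase gene, had 7, 9 and 8 reads, and Camk1d, a calcium-dependent kinase gene, 6, 7 and 16. Atp8b4, a lipid flippase gene, had 19, 16 and 8 reads, and Lrrfip1 had 11, 12 and 16, with an annotated start inside the region of 11 reads. Cyfip2, Dclk2, Pced1b, Rnf144b, Trps1 and the noncoding Gm31814 had 6 to 12 reads in each region.

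Syk and Pik3ap1, a pair of signalling genes of B cells and myeloid cells, also had 3 knockout-only and no control-only regions. Syk encodes a tyrosine kinase downstream of immune receptors, and its regions clustered within 9.77 kb of the gene (chromosome 13, 52615115 to 52615500, 52617293 to 52617682, and 52624208 to 52624885), with 17, 16 and 9 reads. No region of any other class lay inside Syk, and the nearest control peak was 31.5 kb away or more. The Syk gene end had 52 control and 38 knockout reads, a scaled ratio of 1.14 (0.731 to 1.77). Pik3ap1, the gene of the adaptor BCAP, had 29, 13 and 11 reads beside 2 shared regions, and its gene end had 13 and 11 reads (1.32, 0.536 to 3.20). Neither gene end differed beyond counting error.

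The other genes with 3 knockout-only regions had control-only regions as well. Tcf7l2, a Wnt pathway transcription factor gene, had 8, 24 and 14 reads beside 1 control-only region, and its gene end had 58 control and 18 knockout reads, a ratio of 0.485 (0.269 to 0.834). Ptpre, a phosphatase gene, had 7, 35 and 11 reads, Tiam1, an exchange factor for RAC, 16, 17 and 15, and Uck2 10, 6 and 19. Celf2, an RNA-binding protein gene, had 6, 6 and 24. Gsap, Prkg1, Ripor3, Sema4d, Mbnl2, Adam10, Adcy9, Cmip, Kat6b, Tns1, Snx29, St6galnac3 and Zfhx3 had 6 to 17 reads in each region. Sgms1, a sphingomyelin synthase gene, stood at the other end, with 3 knockout-only, 7 control-only and 7 shared regions. Of the 24 genes of this set with a shared gene-end region, 3 (Map3k5, Camk1d and Kat6b) had a ratio with an interval above 1 and 1 (Tcf7l2) below 1. The gene end of Camk1d had 107 control and 103 knockout reads (1.503, 1.14 to 1.99), and that of Kat6b, a histone acetyltransferase gene, 878 and 631 (1.12, 1.01 to 1.24). Over all 9681 protein-coding genes measured at a gene end, the interval was above 1 in 9.58%.

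**Figure D4:**
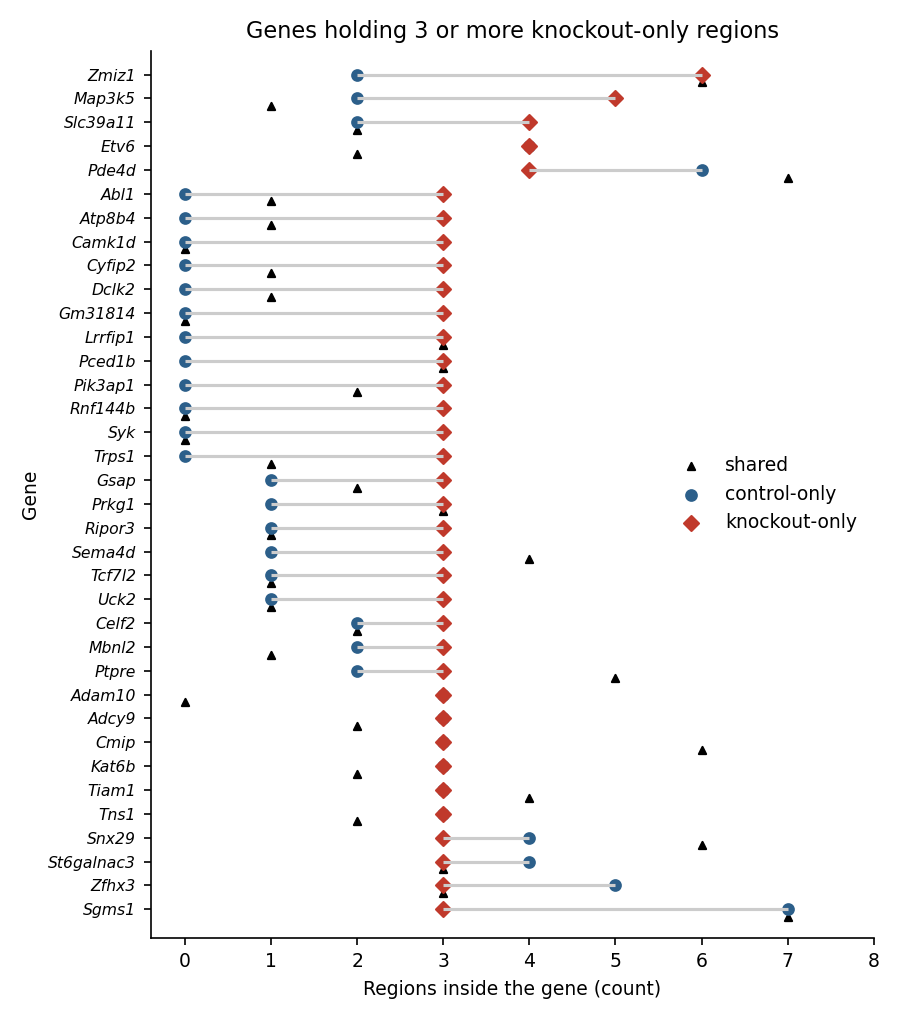
Number of knockout-only (red diamonds), control-only (blue circles) and shared (black triangles, drawn slightly lower) regions inside each of the 36 genes that hold at least 3 knockout-only regions; a circle hidden under a diamond marks equal numbers. Zmiz1 has 6 knockout-only and 2 control-only regions, and Sgms1 has 3 and 7.

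Over all genes, calls in one list alone were more often in the control. Knockout-only regions outnumbered control-only ones by 4 in 1 gene (Zmiz1), by 3 in 13, by 2 in 88 and by 1 in 1180. In 338 genes the numbers were equal and above 0. Control-only regions were more by 1 in 2055 genes and by 2 in 349. The excess of 4 in Zmiz1 compares with an excess of 8 in the gene at the other extreme.

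The strongest knockout-only region inside a gene, by the authors' deposited −log10 q, lay in Inpp5d. This gene encodes SHIP1, the inositol phosphatase that limits PI3K signals in blood cells. The region (chromosome 1, 87628153 to 87628616) was 464 bp wide, had 52 knockout reads (38.8 to 68.2) over a background of 4.43, and a deposited −log10 q of 34.3. It lay 7841 bp from the gene end and 1462 bp from the nearest control peak. A second region in Inpp5d had 8 reads, beside 2 control-only and 3 shared regions. The gene end had 42 control and 20 knockout reads, a scaled ratio of 0.744 (0.414 to 1.30), so the strong region inside did not come with a gene end that differed beyond counting error.

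Next came Cpt1c, a carnitine palmitoyltransferase gene known mainly from neurons (chromosome 7, 44970210 to 44970638; 54 reads, 40.6 to 70.5; −log10 q 32.3). It was the only region inside Cpt1c, and the gene end had 59 and 34 reads (0.900, 0.572 to 1.40). Megf6 followed (chromosome 4, 154246245 to 154246903; 31 reads, 21.1 to 44.0; −log10 q 24.0), 84.7 kb from the nearest control peak. After the Pik3ap1 and Tcf7l2 regions with 29 and 24 reads came Zfp609 (40 reads), Zmynd11 (53 reads), Gm4681 (24 reads) and Nod2, the gene of a bacterial sensor of myeloid cells (22 reads, 13.8 to 33.3, 5792 bp from a control peak). Pip5k1b, Grin2d, Ptcd1, Wdfy2, Atp13a3, Gm4633 and Ppp1r12a had 19 to 26 reads. Arid3a, a B cell and stem cell transcription factor gene, had 24 reads. Of the 20 regions with the highest −log10 q, 12 were under 500 bp wide, beside a median width of 506 bp over all 1942. A control peak lay within 10000 bp of 14 of the 20 and of 41.6% of all 1942. None of the 20 held an annotated start, beside 2.15% of the 1862 regions checked.

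A few knockout-only regions had many reads over a high local background. They were set apart after their values had been seen. Ptma, the prothymosin gene, held the region with the most reads (chromosome 1, 86527988 to 86528404): 157 reads (133 to 184) over a background of 71.1, a deposited fold of 2.19, at 1431 bp from the gene end and 1048 bp from a control peak. Nadk2 had 73 reads over a background of 21.0, and Dbp, a circadian transcription factor gene, 54 over 28.3. Gnas, Zkscan14, Lrrc75a, Hic1, Mafg, St3gal1 and the region shared by Gm52551 and St6galnac6 had 40 to 52 reads. All 14 regions with at least 40 reads had a control peak within 10000 bp, and 12 had one within 3000 bp. Over all 1942 regions, 41.6% had one within 10000 bp. The median background of the 14 was 12.7 reads against 0.980 over all knockout-only regions inside genes. It was 5.77 over the 1444 shared regions with as many knockout reads. Inpp5d (4.43), Zfp609 (4.71) and Cpt1c (5.37) lay below that value. The median width of the 14 regions was 465 bp, against 1012 bp for the 1444 shared regions, which span peaks of both lists. Most of these strong, narrow calls thus lay over a higher local background than the median of such shared regions. The part of the background in the one-list call was not tested.

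The widest knockout-only regions inside genes were of modest height. Nck2, an SH2 and SH3 adaptor gene, had a region of 1749 bp with 12 reads, and Klf13 one of 1548 bp with 20 reads. Cacna1a (1440 bp), Hspg2 (1357 bp) and Msi2, an RNA-binding protein gene of stem cells (1280 bp), had 13 to 15 reads. The regions in the longest stretches without any other region, measured as the sum of the gaps on both sides, were in Pcdh9 (6 reads, a stretch of 9534 kb, the nearest control peak 3170870 bp away), Gm32728 (7 reads), Slc7a11, the cystine transporter gene (8 reads), LOC115487390 (6 reads) and Gm33228 (14 reads). Of these, only Gm33228 had more reads than the upper quartile of 12.

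Gene lists were compared by the number of their genes that held a knockout-only region, beside 8.46% of all protein-coding genes, and by the share of their regions inside genes that were knockout-only, beside 17.4% (16.7 to 18.2). Median gene length ranged from 7.12 to 89.3 kb between lists, and long genes more often held knockout-only and control-only regions. The share of regions is counted per region and not per gene, but whether it changes with gene length was not tested. Stem and progenitor regulators had such a region in 9 of 25 genes, and 14 of their 70 regions (20%, 11.4 to 31.3) were knockout-only against 30% control-only. Cd34, the surface marker of progenitors, had 1 knockout-only region (chromosome 1, 194943343 to 194943990; 18 reads, 10.7 to 28.4), which was the only region inside that gene. Erg, an ETS factor of stem cells, had 1 with 24 reads (15.4 to 35.7) beside 3 control-only ones. Zfpm1, the gene of the GATA1 partner FOG1, had 1 with 20 reads beside 4 shared ones, and its gene end had 1059 control and 799 knockout reads (1.18, 1.07 to 1.29). Runx1 had 2, with 9 and 8 reads, beside 2 control-only and 7 shared, and Fli1 2, with 11 reads each and 0.876 kb apart. Meis1, Ikzf2 and Myb had 1 each, with 9 to 10 reads. The measured gene ends of Etv6, Runx1, Meis1, Ikzf2 and Myb had intervals that included 1.

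Erythroid genes held 8 knockout-only regions in 8 of 26 genes, 16.3% (7.32 to 29.7) of their 49 regions, against 24.5% control-only. Ank1, the ankyrin of the red cell membrane, had 1 with 12 reads beside 5 control-only regions, and Epb41 had 1 with 12 reads. The gene ends of Epb41 (379 control and 198 knockout reads; 0.816, 0.684 to 0.971) and Sptb (328 and 164; 0.781, 0.643 to 0.945) had intervals below 1. Those of Ank1 (1.51, 0.893 to 2.56), Sox6 (1.39, 0.662 to 2.88), Bcl11a (0.991, 0.729 to 1.34) and Rhag (0.868, 0.429 to 1.69) had intervals that included 1. An interval below 1 was found in 7.38% of all 9681 protein-coding genes measured at a gene end. Rhag, Sptb and Sox6, a repressor of embryonic globin, had 11 reads in 1 region each. Slc25a37, the mitochondrial iron importer, Bcl11a and Tspan33 had 7 to 10 reads. Every region in this list was at or below 12 reads, the upper quartile of all knockout-only regions inside genes. Megakaryocyte and platelet genes had 4 in 3 of 17 genes, 16.0% (4.54 to 36.1) of 25 regions, against 8% control-only (2 regions). The genes were Tbxas1, the thromboxane synthase gene (25 reads), Rab27b (11 and 11 reads) and Nbeal2 (13 reads). The gene end of Nbeal2 had 226 control and 183 knockout reads (1.26, 1.03 to 1.54). The intervals of Tbxas1 (0.868, 0.476 to 1.54) and Rab27b (0.878, 0.342 to 2.11) included 1. Granulocyte and monocyte genes had 1 in 24 genes, in Csf1r, the macrophage growth factor receptor gene, with 8 reads, of 4 regions in that list.

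Lymphoid genes had knockout-only regions in 5 of 25 genes, 14.6% (5.57 to 29.2) of 41 regions, against 31.7% control-only. Ikzf1, the gene of the lymphoid regulator Ikaros, had 1 with 22 reads (chromosome 11, 11762964 to 11763613; 13.8 to 33.3 reads; −log10 q 14.8), 24.9 kb from a control peak. Notch1, the receptor that sets T cell fate, had 1 with 19 reads (chromosome 2, 26496668 to 26497107; 11.4 to 29.7), and its gene end had 28 control and 33 knockout reads, a ratio of 1.84 (1.08 to 3.16). Bach2 had 2, with 17 and 10 reads, Foxo1 1 with 11 and Satb1 1 with 8. Notch1 was the only 1 of these 5 genes whose gene-end interval lay above 1.

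Kinases, phosphatases and adaptors of blood cells had such regions in 9 of 33 genes, 21.9% (13.1 to 33.1) of 73 regions, against 35.6% control-only. Beside Inpp5d, Syk and Abl1, Jak1, the cytokine receptor kinase, had 2 with 8 and 18 reads beside 5 control-only regions. Csk, which inhibits SRC kinases, had 1 with 17 reads, Grap2 1 with 15 and Stat5b 1 with 14. Vav2 had 2, with 8 and 10 reads, and Ptpn6, the gene of the phosphatase SHP-1, 1 with 9. Genes of actin, adhesion and cytoskeletal signalling had them in 10 of 27 genes and 14 of 50 regions, 28.0% (16.2 to 42.5), against 20% control-only. Dock8, an exchange factor of leukocytes, had 2, with 18 and 9 reads, and no other region inside. Myh9, the nonmuscle myosin gene, had 2 with 7 and 16 reads and no control-only region, and Actn1, Myo1f, Cap1, Arhgef7, Dock2, Myo1g and Itgb2 had 1 each, with 7 to 13 reads.

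The BAF complex genes, a list of 28 subunits that includes those of other BAF forms, had knockout-only regions in 7 genes, 19.6% (9.36 to 33.9) of 46 regions, against 30.4% control-only. Brd9 had no region of any class inside the gene. Smarcd3 had 1 with 17 reads, Ss18 2 with 6 and 16, and Arid1a 1 with 12, with 235 control and 120 knockout reads at its gene end (0.797, 0.635 to 0.998). Smarca4, the ATPase gene BRG1, had 2 with 9 reads each and a gene end with 283 control and 226 knockout reads (1.25, 1.04 to 1.49). Bicra, which encodes a subunit of the non-canonical complex, Dpf3 and Arid1b had 1 each, with 6 to 8 reads. The gene-end intervals of Ss18 (1.15, 0.907 to 1.45), Bicra (1.06, 0.834 to 1.33), Dpf3 (1.26, 0.966 to 1.64) and Arid1b (0.899, 0.645 to 1.24) included 1. Of all 9681 protein-coding genes measured at a gene end, 9.58% had an interval above 1 and 7.38% below 1. CTCF, cohesin, Polycomb and DNA methylation genes had them in 5 of 26 genes, 18.8% (7.21 to 36.4) of 32 regions: Tet3, a 5-methylcytosine oxidase (25 reads), Dnmt1 (13), Nipbl, the cohesin loader (11 and 11), Pds5a (7) and Dnmt3a (7). The p53 and cell cycle list had 2 in 24 genes, Cdk6 (11 reads) and Ccnd3 (6 reads), 6.45% (0.791 to 21.4) of 31 regions.

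Lists of other cell types were checked in the same way. Neuronal genes, which are long, had knockout-only regions in 8 of 30 genes and in 25.8% (11.9 to 44.6) of 31 regions, against 35.5% control-only. Beside Cpt1c, Grin2d, a glutamate receptor gene, had 26 reads, Cacna1a, a calcium channel gene, 15 and Camk2b 12, while Dlgap4, Grik5 and Shank3 had 6 to 9. Of 18 hepatocyte markers only Trf, the transferrin gene, had one (9 reads), and of 22 endothelial and stromal markers only Eng (10 reads). None lay in 16 macrophage markers or 10 mast cell and basophil markers, whose genes held 3 and 2 regions of any class. The interval of every list with at least 20 regions included the 17.4% of all protein-coding genes.

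**Figure D5:**
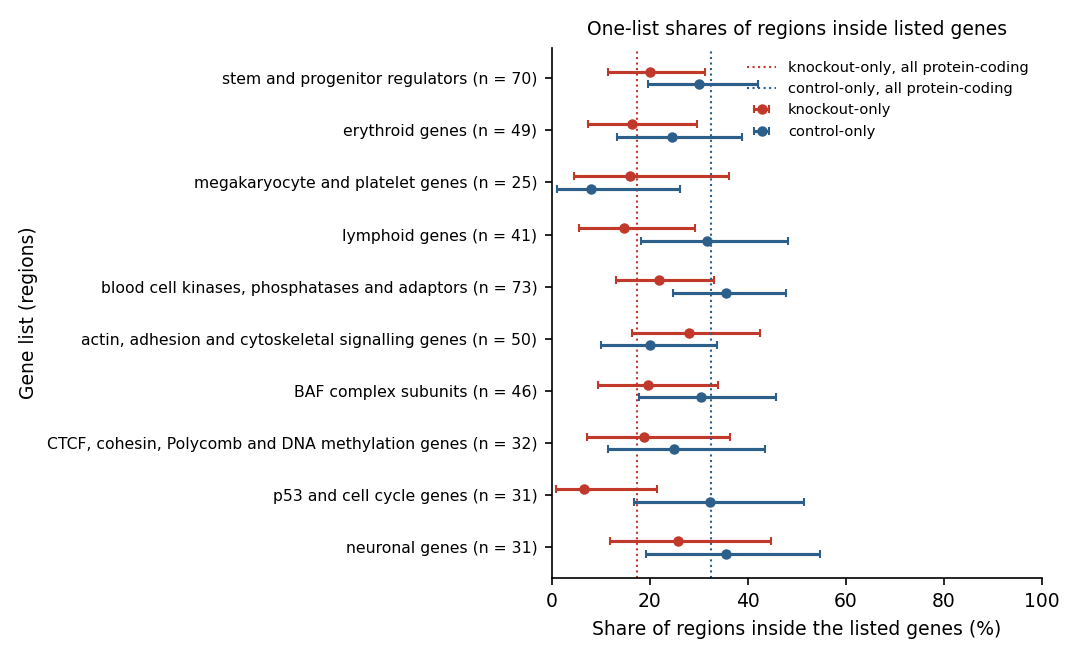
Percent of regions inside the genes of each list that were knockout-only (red) or control-only (blue), for lists with at least 20 regions; bars are 95% exact Clopper-Pearson intervals and dotted lines the values over all protein-coding genes (17.4% and 32.4%). Every red interval crosses the red line, with actin, adhesion and cytoskeletal signalling genes highest at 28.0% and p53 and cell cycle genes lowest at 6.45%.

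Gene ends and nearby shared sites were measured outside the regions that chose the genes. Of protein-coding genes with a knockout-only region inside, 922 had a shared gene-end region, with a median log2 scaled ratio of 0.04 (quartiles −0.18 and 0.26), and 504 of them (54.7%) were above 0. Over all 9681 protein-coding genes with such a gene-end region the median was 0.02 and 52.1% were above 0. The interval lay above 1 in 82 genes (8.89%) and below 1 in 55 (5.97%), beside 9.58% and 7.38% of all 9681. Counted over all shared gene-end regions, 8.97% had an interval above 1 and 7.52% below 1. Genes with at least 2 knockout-only regions had a median of 0.07 (166 genes; 58.4% above 0), those with knockout-only and no control-only regions 0.05 (551 genes), and those with control-only and no knockout-only regions 0.01 (1228 genes). The 341 shared regions inside genes within 10000 bp of a knockout-only one had a median of −0.07, with 43.7% above 0, near the −0.06 and 45.1% of all 5520.

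The labels were checked at marker genes. The gene end of Kit (109 control and 65 knockout reads) was in both lists, whereas Alb, Afp, Ttr, Adgre1, Cd68, Cdh5 and Cd3e had no gene-end peak in either. A missing gene-end peak was not limited to genes of other cells, since the blood cell genes Cd34, Ptprc and Gata2 had none in either list, and the stromal gene Col1a1 had one in both (29 and 19 reads). Of the hepatocyte markers 4 of 18 had a gene-end peak in both lists and 14 in neither, and of the macrophage markers 4 of 16 and 12. Endothelial and stromal markers had one in both lists for 4 of 22, in the control alone for 4 and in the knockout alone for 1. The summed levels of these markers cannot be compared from peak lists, and the part of other cells in the knockout-only regions was not tested. The Brd9 gene end was in both lists (217 and 151 reads), which does not check the deletion, since the labels do not say which part of the gene is deleted. Sex-linked genes differed, with Ddx3y and Uty in the knockout list alone. Xist had 1 shared and 1 control-only gene-end region. Its largest summits had 86 control and 33 knockout reads, not scaled for depth and not necessarily of the same region. Neither list had a peak at an end of Kdm5d, and 3 other regions on chromosome Y were shared. The sex of the embryos is not stated in the labels, so genotype and any difference in sex composition of the libraries cannot be told apart.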

How the data were processed

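ATAC-seq peak lists of 1 control and 1 knockout library were used, deposited by the authors per sample. Per the submitters' processing notes, which give no roles, MACS2 2.2.7.1 (a peak caller), Bowtie2 2.4.4 (an aligner), deepTools 3.5.1, Picard 2.26.2 and Trimmomatic 0.39 were used with build mm10. The deposited columns are a score (10 times −log10 q, truncated), a fold (ratio of summit pileup to background, each plus 1), a −log10 p, a −log10 q and the summit offset; those notes do not say how reads were shifted, extended or deduplicated.

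Summit reads and background were solved from the deposited fold and −log10 p (largest relative misfit 7.31e-06) and tested on simulated peaks. Total depth is unknown: the list of 25330 control peaks had a median of 37 summit reads, that of 22348 knockout peaks 28. Scaled ratios are knockout over control reads divided by 0.640. Per gene, the ratio is that of the shared region with the most reads within 1000 bp of either gene end. Peaks over 3000 reads were left out of ratios. Genes and starts came from RefSeq tables of GRCm38.p6, and 353 of 353 listed genes matched. Computation used pandas 2.3.3, SciPy 1.17.1 and NumPy 2.4.6 under Python 3.11.15, and figures matplotlib 3.10.9. Annotated starts on chromosome 18 were not analysed here. Intervals are 95% and cover counting error only, since, lacking molecular identifiers, reads are not independent molecules.

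Members and the 15 gene lists were chosen with earlier results of these data known. Named were the 20 regions of highest −log10 q, genes with at least 3 members, list genes, the 5 widest members and the 5 in the longest stretches without another region, the genes of largest excess (by 3 or 4, all among those with at least 3 members) and the 3 regions on either side of each threshold; further list genes, regions with at least 40 reads and the windows shown were chosen after values were seen. Alternatives covered overlap, peak threshold, peak number, gene-end distance, gene types and sex chromosomes. A few genes are not reported here.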

Additional observations from a re-analysis of the deposited data

Results flagged for a closer look

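On chromosome Y, which the autosomal comparison did not use, the knockout list alone held regions at the gene ends of Uty (1244601 to 1246228), with 18 summit reads (10.7 to 28.4), and of Ddx3y (1285854 to 1286655), with 33 summit reads (22.7 to 46.3). Neither had a control peak. Both lists held 3 other regions on chromosome Y, 1 inside a gene and 2 intergenic, and neither list had a peak at an end of Kdm5d. On chromosome X, 29 regions inside genes were knockout-only, 56 control-only and 105 shared.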

How the results depend on the processing

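Requiring a −log10 q of at least 5 in both lists left 941 knockout-only regions inside genes, 11.3% of regions inside genes, with medians of 13 reads and 560 bp and a control peak within 10 kb of 35.9%. Applying that minimum to the knockout list alone, an alternative chosen after seeing the data, gave 721 regions (7.33%) with medians of 13 reads and 540 bp. Taking the 11174 highest-ranked peaks of either list gave 376 regions (13.5%), medians of 30 reads and 707.5 bp, and 23.1% within 10 kb. Counting peaks as shared only from an overlap of 50% of the shorter peak gave 2067 regions (18.5%) and 45.1% within 10 kb. Joining peaks up to 250 bp apart, drawing gene ends at 2.5 kb, using protein-coding genes only or including the sex chromosomes gave 1637 to 1971 regions. The median gene-end log2 ratio was 0.02 to 0.07 under every alternative run. The count and strength of the regions thus depended on the peak threshold; absolute depth is unknown. No paired analysis was possible because each genotype had 1 library and their replicate numbers differ, and no library could be left out.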
